A study of Homo sapiens with 6 samples.

Results

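The 8 transcription factors PHOX2A, HAND1, HAND2, GATA2, GATA3, ISL1, TBX2 and TFAP2B are regulators of the sympathetic lineage that are used to describe the adrenergic identity of neuroblastoma cells. They were taken by name, as 8 of the 17687 genes measured, and each was represented by 1 probe set. Whole-transcript Affymetrix arrays were run on SH-SY5Y, a human neuroblastoma cell line in wide use that extends neurites when treated with retinoic acid. The 6 arrays form 2 groups of 3, and the protocol text shared by all of them states induction with all-trans retinoic acid (atRA) over 96 h, so the controls are differentiated cells too. The group labelled 15EN was treated with the study's compound, which the series title names as eurycomanone, a constituent of Eurycoma longifolia root, at 15 µM. The group labelled VC is the vehicle control. The shared protocol text names the compound for the VC samples too, so the groups rest on the sample titles and descriptions. Replicates 1, 2 and 3 carry passage 33, 34 and 35 in the titles of both groups, although the descriptions name passage 33 throughout. A single cell line and a single dose were studied, and nothing beyond the passage says that samples of a group were separate cultures, so p-values measure the spread between these arrays.

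Sympathetic neurons and chromaffin cells arise from the neural crest, where BMP signals switch on a set of transcription factors that activate each other and the genes of noradrenaline synthesis. PHOX2A is a homeodomain factor that acts on the promoter of DBH, the enzyme that makes noradrenaline. HAND1 and HAND2 are basic helix-loop-helix factors, GATA2 and GATA3 are zinc finger factors, and ISL1 is a LIM-homeodomain factor of sympathetic and sensory neurons. TBX2 is a T-box repressor, and TFAP2B (AP-2 beta) acts in the maturation of sympathetic neurons. In adrenergic neuroblastoma several of these genes form an autoregulatory circuit, and mesenchymal neuroblastoma cells instead use factors such as the AP-1 members, YAP1 and PRRX1.

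Because the factors are thought to bind each other's regulatory DNA, the promoter sequences of the members that changed, or came close to it, are shown together with that of HAND2, the paralog of HAND1. RefSeq promoters (GRCh38.p14, 250 bases before to 50 bases after a start site, read 5′ to 3′ on the gene's strand) matched 7 of the 8 members by symbol. Capitals mark matches on either strand to 5 motifs of the factors themselves, namely GATA sites (AGATAA or AGATAG or TGATAA or TGATAG), the HAND/TWIST E-box (CATCTG), the homeodomain core (TAATTA), the TFAP2 site (GCCNNNGGC) and the T-box half-site (AGGTGT).
PHOX2A, chr11:72244127-72244426, minus strand: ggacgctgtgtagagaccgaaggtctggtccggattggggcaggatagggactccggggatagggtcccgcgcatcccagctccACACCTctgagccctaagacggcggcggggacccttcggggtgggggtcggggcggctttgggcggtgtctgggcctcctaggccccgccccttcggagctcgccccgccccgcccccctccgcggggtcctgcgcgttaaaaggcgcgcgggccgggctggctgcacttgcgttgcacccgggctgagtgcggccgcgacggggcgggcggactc
HAND1, chr5:154478178-154478477, minus strand: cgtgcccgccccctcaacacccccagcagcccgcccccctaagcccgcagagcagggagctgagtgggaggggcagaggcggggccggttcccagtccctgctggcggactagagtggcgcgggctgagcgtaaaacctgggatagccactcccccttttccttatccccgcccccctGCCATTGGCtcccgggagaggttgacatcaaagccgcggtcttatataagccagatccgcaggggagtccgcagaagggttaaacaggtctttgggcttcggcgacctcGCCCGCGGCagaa
ISL1, chr5:51383198-51383497, plus strand: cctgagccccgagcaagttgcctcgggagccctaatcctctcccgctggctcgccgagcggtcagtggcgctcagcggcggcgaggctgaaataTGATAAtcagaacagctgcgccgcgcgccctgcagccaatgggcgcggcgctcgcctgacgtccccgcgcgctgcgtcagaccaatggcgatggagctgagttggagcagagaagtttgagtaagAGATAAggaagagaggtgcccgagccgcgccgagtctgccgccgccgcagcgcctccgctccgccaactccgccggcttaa
GATA2, upstream start, chr3:128493152-128493451, minus strand: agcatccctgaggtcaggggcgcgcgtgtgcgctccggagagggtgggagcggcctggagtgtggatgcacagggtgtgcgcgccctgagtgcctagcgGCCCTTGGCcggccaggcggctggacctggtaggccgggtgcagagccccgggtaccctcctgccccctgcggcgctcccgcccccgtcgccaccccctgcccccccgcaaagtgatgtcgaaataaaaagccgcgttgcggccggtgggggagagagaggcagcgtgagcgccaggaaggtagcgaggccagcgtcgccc
GATA2, downstream start, chr3:128488481-128488780, minus strand: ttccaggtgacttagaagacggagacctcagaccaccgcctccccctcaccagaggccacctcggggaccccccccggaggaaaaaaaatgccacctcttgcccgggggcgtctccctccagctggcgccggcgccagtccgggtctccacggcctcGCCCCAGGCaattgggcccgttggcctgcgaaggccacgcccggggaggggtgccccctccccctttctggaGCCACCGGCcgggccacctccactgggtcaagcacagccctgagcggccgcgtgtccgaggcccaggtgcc
HAND2, chr4:173530180-173530479, minus strand: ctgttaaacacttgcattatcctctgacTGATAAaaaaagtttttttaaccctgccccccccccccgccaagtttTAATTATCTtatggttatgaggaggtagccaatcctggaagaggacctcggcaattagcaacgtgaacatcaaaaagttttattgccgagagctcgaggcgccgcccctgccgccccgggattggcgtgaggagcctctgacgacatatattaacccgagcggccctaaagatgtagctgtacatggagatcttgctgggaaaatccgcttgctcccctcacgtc
ISL1 held 2 GATA matches, which began at -156 and -31 relative to its start site. HAND2 held 2 as well, at -222 and -172, and the latter overlaps a homeodomain core at -175. HAND1 held 2 TFAP2 matches, at -72 and 38, and no GATA match. PHOX2A held a T-box half-site at -166. GATA2 held 1 TFAP2 match at its upstream start and 2 at its downstream start. Members whose promoters are not printed, and which did not pass the threshold, held such matches too. GATA3 had TFAP2 matches at -223, -206 and -218 of separate starts and a T-box half-site at -85 of another. TFAP2B had the HAND/TWIST E-box at 4. Among all 35116 promoters of that length in the table, 25.0% held a GATA site, 23.2% a TFAP2 site, 14.7% the HAND/TWIST E-box, 11.4% the T-box half-site and 4.84% the homeodomain core. The generic E-box CANNTG, which includes CATCTG, was in 68.7%, and the core of the antioxidant response element TGACNNNGC in 13.3%, among them ISL1 at -86. The longer PHOX2 palindrome (0.365% of promoters) and a retinoic acid response element with a 5-base spacer (0.0057%) matched none of the 13 promoters of members. A match describes the letters in this window and was not tested as a binding site.

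All 8 members gave a log2 signal above the 90th percentile of the negative controls (612 probe sets, a limit of 7.41 to 7.99) on every array. A gene below that limit on an array is called dim there. Array medians over genes were 7.60 to 7.71, and Pearson's r over genes within a group was 0.978 to 0.993. Replicate 3 of 15EN stood somewhat apart, at 0.978 and 0.98 with the other 15EN arrays against 0.991 between those. It was also closer to the VC arrays, at 0.969 to 0.971, than 15EN replicates 1 and 2 were, at 0.96 to 0.963. Values without it are given for some of the results below. Spiked hybridization controls were dimmer in 15EN by 0.87 on the log2 scale, and spiked poly-A controls had a difference of -0.25. Scaling the arrays to the hybridization controls adds 0.87 to every difference and takes the median gene from 0.01 to 0.88. Differences below are on the deposited scale, hence relative to the median gene.

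The 15EN arrays were compared with the VC arrays to ask whether the identity factors changed with the compound. ISL1 (2.29-fold), PHOX2A (1.85-fold) and HAND1 (2.29-fold) fell, GATA2 (1.88-fold lower) missed the threshold, and GATA3 and HAND2 differed by less than the spread between arrays. TBX2 and TFAP2B were higher in 15EN without passing the test. By limma with Benjamini-Hochberg adjustment over all genes, 3 of the 8 fell and 0 rose at an adjusted p of 0.05. Over all genes 9.09% fell, 12.3% rose and 21.4% changed in either direction at that threshold. At an unadjusted p under 0.05, 4 of the 8 were lower and 1 was higher. The share of all genes at that looser limit was not counted. Unadjusted counts here and below therefore have no background beside them, and do not show an excess or a lack among the listed genes. The median log2 difference of the 8 was -0.41, beside 0.01 over all genes. In bulk RNA, fewer cells of a type and less RNA per cell cannot be told apart.

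**Figure D1:**
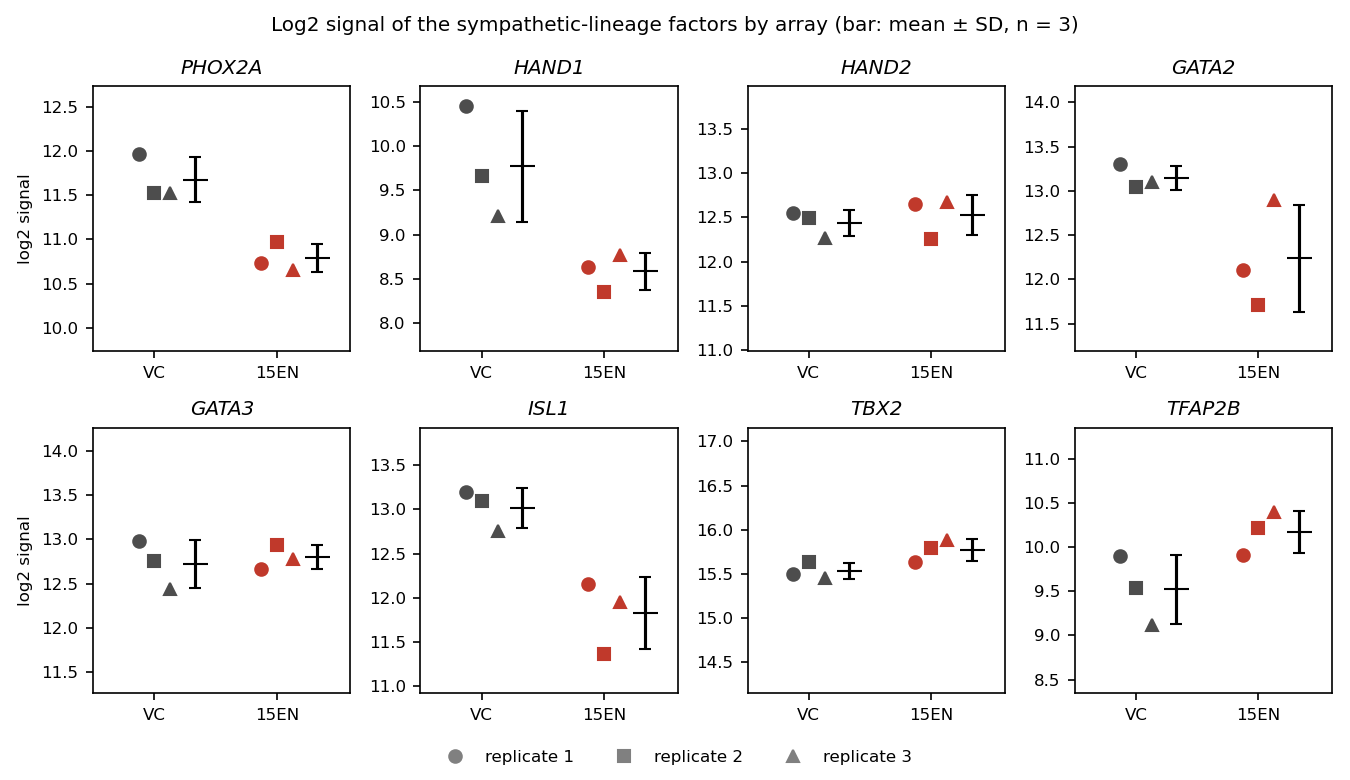
Log2 signal of each of the 8 factors on the 3 VC arrays (grey) and the 3 15EN arrays (red), with the symbol giving the replicate number and the black bar the mean ± SD (n = 3); every panel spans the same range of 3 log2 units around its own centre. The 15EN points lie below all VC points for PHOX2A, HAND1, GATA2 and ISL1, and the groups overlap for HAND2 and GATA3.

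ISL1, which specifies sympathetic and sensory neurons, had log2 signals of 12.16, 11.37 and 11.95 in 15EN (replicates 1, 2 and 3, the order used throughout), against VC signals of 13.20, 13.09 and 12.76. Every 15EN array was below every VC array. Its mean went from 13.02 ± 0.23 to 11.82 ± 0.41 (SD, n = 3), a log2 difference of -1.19 ± 0.26 (SE, limma adjusted p = 0.00816), or 2.29-fold lower (95% interval 1.54 to 3.39). This was the smallest p among the 8, and ISL1 passed without any single array, at differences of -0.97 to -1.36 (adjusted p 0.00454 to 0.0424). When both arrays of replicate 1 or of replicate 2 were left out, which leaves 2 arrays per group, its adjusted p was 0.0598 or 0.124.

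PHOX2A, the activator of noradrenaline synthesis genes, had log2 signals of 10.74, 10.97 and 10.66 in 15EN and 11.97, 11.53 and 11.53 in VC. These groups did not overlap either, and the 15EN arrays lay within 0.31 of each other. The log2 difference was -0.88 ± 0.22 (SE, limma adjusted p = 0.0169), which is 1.85-fold lower (95% interval 1.32 to 2.59). Without 15EN replicate 1 it was -0.86 (adjusted p = 0.0552) and without VC replicate 1 -0.74 (adjusted p = 0.076), so the call rests on these arrays.

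HAND1, a basic helix-loop-helix factor of the developing heart and sympathetic lineage, had log2 signals of 8.63, 8.35 and 8.77 in 15EN and 10.45, 9.66 and 9.21 in VC. The VC arrays spread over 1.24 and the 15EN arrays over 0.43, and the groups did not overlap. The log2 difference of -1.20 ± 0.31 (SE, limma adjusted p = 0.0193) corresponds to 2.29-fold lower, with a wide 95% interval of 1.43 to 3.67. The same-numbered differences were -1.83, -1.32 and -0.44 for replicates 1, 2 and 3. The call was lost without VC replicate 1 (-0.86, adjusted p = 0.0661), VC replicate 2 (-1.25, adjusted p = 0.0598) or 15EN replicate 2 (-1.08, adjusted p = 0.0727).

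GATA2, a zinc finger factor of early sympathetic progenitors, had log2 signals of 12.10, 11.71 and 12.90 in 15EN and 13.30, 13.04 and 13.10 in VC. All VC arrays were above all 15EN arrays, but 15EN replicate 3 came within 0.20 of its VC counterpart. The log2 difference was -0.91 ± 0.30 (SE, 95% interval -1.57 to -0.25, limma adjusted p = 0.0518), just outside the threshold. In the fit that pairs arrays of the same passage (the replicate block) GATA2 passed at adjusted p = 0.0324, and 4 of the 8 factors were then lower (10.1% of all genes fell in that fit). Without 15EN replicate 3 it fell by 1.24 (adjusted p = 0.00149). Without any other single array it did not pass, at -0.65 (adjusted p = 0.18) without 15EN replicate 2, 0.139 without 15EN replicate 1 and 0.118 to 0.162 without a VC array. Without both arrays of replicate 1 or of replicate 2 the adjusted p was 0.33 or 0.306. Quantile normalization gave -1.03 (adjusted p = 0.0377) and trend removal, which takes out a dependence of each array's deviation from the gene mean on brightness, -1.06 (adjusted p = 0.034). It passed too without the dimmest tercile of genes (adjusted p = 0.0401), with a trended robust prior (0.0344) and with array weights (-1.10, adjusted p = 0.00307).

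**Figure D2:**
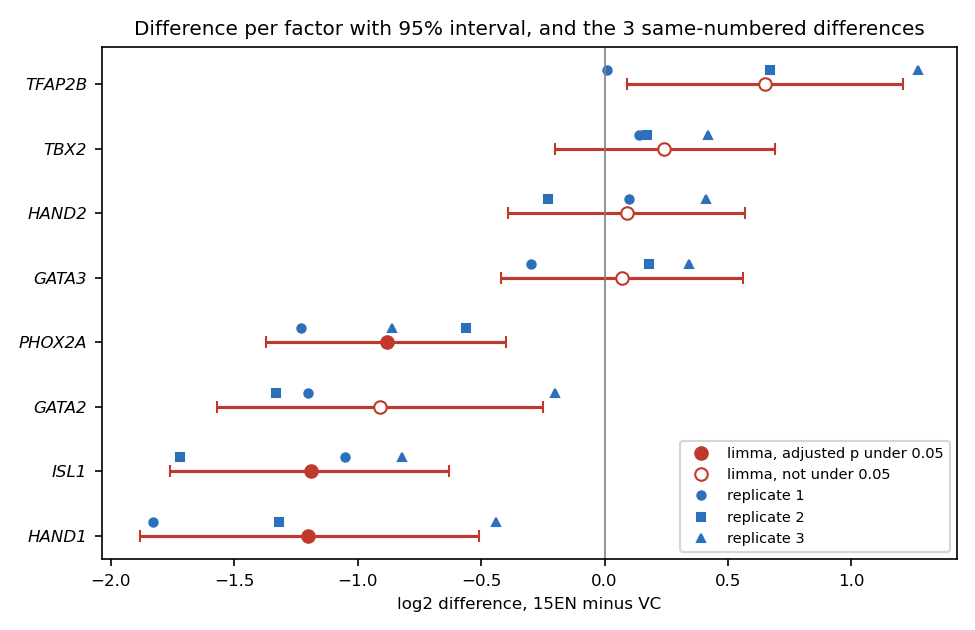
Log2 difference of 15EN minus VC for each factor (red circle, with its 95% interval from limma; filled where the adjusted p was under 0.05) and the differences between arrays of the same replicate number (blue symbols). PHOX2A, GATA2, ISL1 and HAND1 have 3 negative same-numbered differences each, from -0.20 to -1.83, whereas those of HAND2 and GATA3 lie on both sides of 0.

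GATA3, the paralog of GATA2 that maintains noradrenergic traits in sympathetic neurons, had log2 signals of 12.67, 12.94 and 12.78 in 15EN and 12.98, 12.76 and 12.44 in VC. The groups overlapped, with a log2 difference of 0.07 ± 0.22 (SE, 95% interval -0.42 to 0.56, limma adjusted p = 0.872). Its sign turned after quantile normalization (-0.03), with trend removal (-0.07), without VC replicate 3 (-0.07) and without both arrays of replicate 3 (-0.06), so no direction can be given. HAND2, which sustains noradrenergic gene expression beside PHOX2 factors, had 12.65, 12.26 and 12.67 in 15EN and 12.55, 12.49 and 12.27 in VC. These arrays also overlapped, and the log2 difference was 0.09 ± 0.22 (SE, 95% interval -0.39 to 0.57, limma adjusted p = 0.826), turning to -0.01 after quantile normalization, to -0.06 with trend removal and to -0.06 without both arrays of replicate 3. The upper bounds of the intervals were 1.48-fold for GATA3 and 1.49-fold for HAND2. HAND2-AS1, the antisense neighbour of HAND2 and named here after its value was seen, had a log2 difference of -0.02 ± 0.29 (limma adjusted p = 0.979).

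Whether paralogs differed in their change was tested within arrays. The log2 signal of GATA2 minus that of GATA3 was -0.58, -1.23 and 0.12 in 15EN and 0.32, 0.28 and 0.66 in VC, a shift of -0.98 between the group means. HAND1 minus HAND2 gave -4.03, -3.92 and -3.90 in 15EN and -2.10, -2.83 and -3.05 in VC, a shift of -1.29. In each pair the 3 arrays of one group lay on one side of those of the other. The exact two-sided permutation test gave p = 0.1 for each of these 2 pairs (0.1 after Benjamini-Hochberg adjustment), the smallest p that 3 arrays against 3 allow. This test therefore cannot reach 0.05 with these numbers of arrays. The within-array differences compare changes, not levels of one gene with another.

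TBX2, a T-box repressor, had log2 signals of 15.64, 15.79 and 15.88 in 15EN and 15.50, 15.63 and 15.46 in VC. The 15EN arrays were all higher, yet the log2 difference was 0.24 ± 0.20 (SE, 95% interval -0.20 to 0.69, limma adjusted p = 0.463). TFAP2B, the AP-2 factor of sympathetic maturation, had 9.91, 10.21 and 10.39 in 15EN and 9.90, 9.54 and 9.12 in VC. Here too no 15EN array was below a VC array, but 15EN replicate 1 and VC replicate 1 differed by 0.01. The log2 difference of 0.65 ± 0.25 (SE, 1.57-fold, 95% interval 1.06 to 2.32) had a limma adjusted p of 0.0997. In all, the groups did not overlap for 6 of the 8 factors, 4 with 15EN lower and 2 with 15EN higher. Over all genes the groups did not overlap for 36.3%, with 16.6% lower and 19.7% higher.

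The reference chosen for the scale changed the calls of 7 of the 8, GATA2 being short of the threshold on both. After scaling to the hybridization controls the differences were -0.33 for ISL1, -0.02 for PHOX2A, -0.33 for HAND1 and -0.04 for GATA2, none past the threshold against 0 (limma adjusted p 0.261 to 0.954). GATA3 (0.94), HAND2 (0.96), TBX2 (1.11) and TFAP2B (1.52) then passed as higher (limma adjusted p 0.000935 to 0.0069), with the same constant added to every gene. Because of that constant, distances from the median gene are the same on both scales by construction. They were -1.21 for ISL1, -0.90 for PHOX2A, -1.21 for HAND1 and -0.92 for GATA2 against 0.06 for GATA3, 0.08 for HAND2, 0.23 for TBX2 and 0.64 for TFAP2B. These are differences relative to other genes, and a change in total RNA was not tested.

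Other factors of the sympathoadrenal lineage moved in both directions. Of 16 measured, 2 rose and 2 fell by limma, with a median log2 difference of 0.01. Beside this and each later list, 12.3% of all genes were higher and 9.09% lower at the same threshold. The homeodomain cofactor PBX3 (-1.18 ± 0.23, adjusted p = 0.00485) and the EYA1 coactivator (-1.09 ± 0.27, adjusted p = 0.0156) fell. The zinc finger factor INSM1 of neuroendocrine cells (1.14 ± 0.34, adjusted p = 0.0379) and the corepressor DACH1 (0.81 ± 0.24, adjusted p = 0.0369) rose. INSM1 was dim on 2 of 3 VC arrays, so its size is uncertain. EYA1 lost its call without 15EN replicate 1 (adjusted p = 0.0553) or VC replicate 3 (0.0759), and INSM1 without any of 5 arrays (0.0591 to 0.156), the exception being 15EN replicate 3. DACH1 lost it without 15EN replicate 2 or any VC array (0.074 to 0.134), with quantile normalization (0.0663) and with trend removal (0.0964). After scaling to the hybridization controls PBX3 (-0.31) and EYA1 (-0.22) did not pass against 0.

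Within the families of the members, the clearest change was in a GATA factor outside the set. GATA4, best known from heart and endoderm, had log2 signals of 10.55, 10.71 and 9.91 in 15EN and 12.56, 12.16 and 11.92 in VC. The groups were well apart, with a difference of -1.82 ± 0.27 (SE, limma adjusted p = 0.00136). Of the 6 GATA genes 1 fell and 0 rose by limma (2 and 0 at an unadjusted p under 0.05), with a median of -0.48, and GATA2 joined GATA4 with the replicate block. In the LIM homeobox family of 12, ISL2, the paralog of ISL1, rose by 0.79 ± 0.21 (SE, limma adjusted p = 0.0229) while ISL1 fell, and their median was -0.07. ISL2 was dim in VC, below the 90th percentile of the negative controls on 2 of 3 arrays, and kept its call without 15EN replicate 3 but lost it without any other single array (adjusted p 0.0527 to 0.0926).

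Of the 17 T-box genes 1 rose and 0 fell by limma (3 and 0 at an unadjusted p under 0.05), with a median of 0.03. The riser was TBX4, a limb and lung factor, at 9.36, 9.35 and 6.38 in 15EN and 5.53, 5.69 and 4.99 in VC. Replicate 3 of 15EN was far below the other 15EN arrays, and that array and all VC arrays were below the 90th percentile of the negative controls, so the size of 2.96 ± 0.66 (SE, adjusted p = 0.01) is uncertain. Without VC replicate 3 the difference was 2.75 (adjusted p = 0.0505) and 0 T-box genes passed, whereas 3 rose without 15EN replicate 3, with array weights and with the replicate block. TBX3, the close relative of TBX2, differed by -0.55 ± 0.26 (limma adjusted p = 0.171). No TFAP2 gene of 5 passed by limma (1 higher and 0 lower at an unadjusted p under 0.05, median 0.13). Of 12 Twist-related genes HAND1 was the one call (0 higher and 1 lower also at an unadjusted p under 0.05, median -0.23), and TWIST1 differed by -0.34 ± 0.29 (limma adjusted p = 0.479).

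Partners and inhibitors of the factors included some of the largest differences among the listed genes. Of 19 measured, 3 rose and 3 fell by limma, with a median of -0.14. LMO3, a LIM-only protein that binds LIM-domain and helix-loop-helix complexes, had log2 signals of 8.14, 7.71 and 8.39 in 15EN and 12.27, 11.62 and 10.97 in VC. All 15EN arrays were more than 2 units below all VC arrays, with a difference of -3.54 ± 0.33 (SE, limma adjusted p = 0.000197). CITED2, a coactivator of AP-2 factors, had 9.39, 10.78 and 10.17 in 15EN and 6.55, 6.63 and 7.29 in VC, where it was dim on all arrays. It rose by 3.29 ± 0.35 (SE, limma adjusted p = 0.000289), a size that is uncertain for that reason. TCF3, the E-protein partner of HAND factors, fell by 1.30 ± 0.22 (adjusted p = 0.00292), and was at -0.43 on the hybridization control scale (adjusted p = 0.169). The LIM-only gene LMO4 rose by 1.28 ± 0.29 (adjusted p = 0.0105), but by 1.03 without VC replicate 2 (adjusted p = 0.0537). The remaining calls, named after their values were seen, were ID1, an inhibitor of helix-loop-helix factors, at 1.61 ± 0.38 (adjusted p = 0.0134) and the LIM cofactor gene LDB2 at -1.93 ± 0.59 (adjusted p = 0.0413). Without VC replicate 1, ID1 was at 1.33 and did not pass (adjusted p = 0.0638). LDB2 overlapped between the groups, was dim on 4 of 6 arrays and lost its call without any of 4 single arrays (adjusted p 0.0846 to 0.168).

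BMP pathway genes, which act upstream of sympathetic fate, included 1 that rose and 3 that fell of 15 by limma, with a median of -0.02. The inhibitory SMAD6 had log2 signals of 11.03, 11.08 and 10.61 in 15EN and 13.94, 14.22 and 13.95 in VC. With tight groups on both sides it fell by 3.13 ± 0.22 (SE, limma adjusted p = 6.44e-05). The inhibitory SMAD7 (-1.60 ± 0.21, adjusted p = 0.000791) and the receptor gene BMPR2 (-1.16 ± 0.26, adjusted p = 0.0101) also fell, and the signal transducer SMAD5 rose by 0.98 ± 0.21 (adjusted p = 0.00782). After scaling to the hybridization controls BMPR2 was at -0.29 and did not pass against 0 (adjusted p = 0.355). The number of lower genes in the list was 5 with quantile normalization, trend removal or array weights and without 15EN replicate 3, and 2 without both arrays of replicate 1 or of replicate 2.

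**Figure D3:**
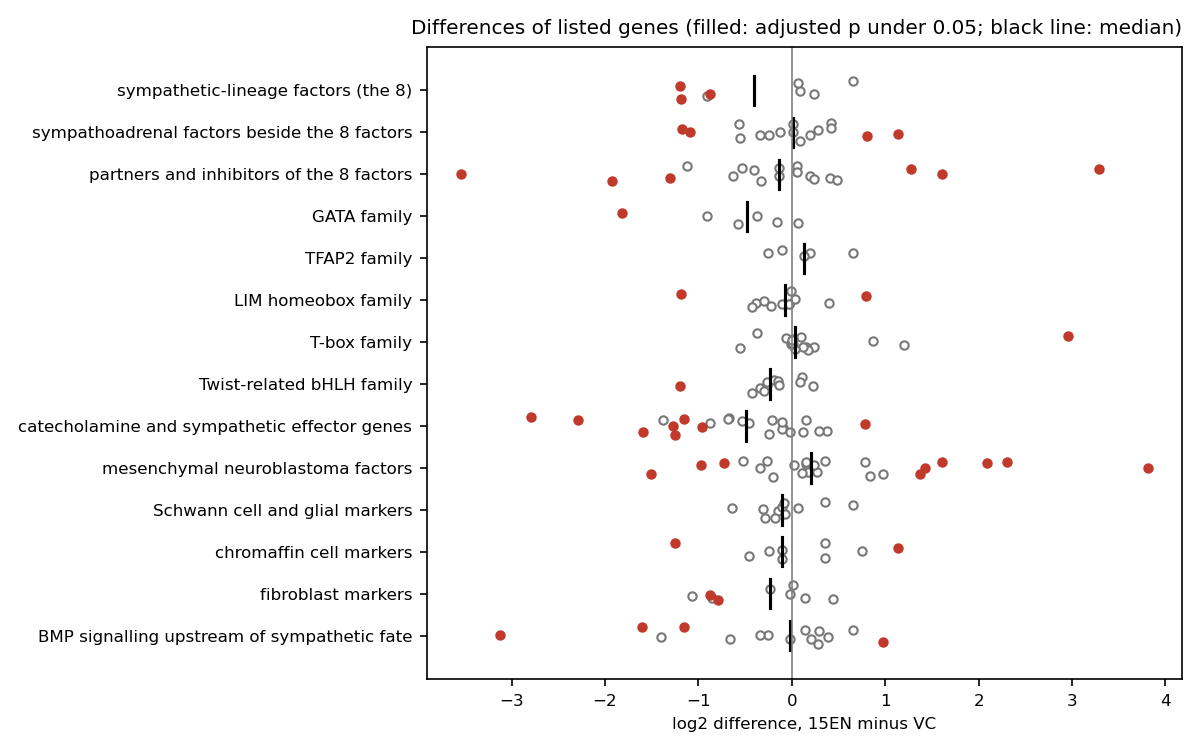
Log2 difference of 15EN minus VC for the 8 factors and for each list of related genes, 1 point per gene, filled red where the limma adjusted p was under 0.05, with the list median as a black line; a gene in several lists is drawn in each. The medians run from -0.50 for sympathetic effector genes to 0.21 for mesenchymal factors, and LMO3 (-3.54), SMAD6 (-3.13), CITED2 (3.29) and FOSL1 (3.81) are the outermost points.

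Effector genes of sympathetic cells, mainly those of catecholamine handling, secretory granules, nicotinic receptors and neurotrophic receptors, were more often called lower than higher. Their regulation by the 8 factors was not tested. Of 24 measured, 7 fell and 1 rose by limma, with a median of -0.50 against 0.01 over all genes. Over all genes 9.09% fell and 12.3% rose. With the replicate number as a block 9 fell, the nicotinic subunit gene CHRNA3 (-0.88, adjusted p = 0.0172) and the neurturin receptor gene GFRA2 (-1.38, adjusted p = 0.00974) among them. DBH had log2 signals of 6.96, 7.49 and 7.07 in 15EN and 8.56, 8.86 and 8.86 in VC, with every 15EN array below every VC array. DDC (-2.29 ± 0.26, adjusted p = 0.000359) and the granule protein gene SCG2 (-2.79 ± 0.34, adjusted p = 0.000518) fell, as did the nicotinic subunit gene CHRNB4 (-1.27 ± 0.31, adjusted p = 0.0158). DDC was dim on 5 of 6 arrays and DBH on 2 of 3 15EN arrays. TH, the first enzyme of catecholamine synthesis, was below the 90th percentile of the negative controls on all 6 arrays, at 5.89 to 6.18 in 15EN and 6.05 to 6.30 in VC. CHGA was below it on all 6 as well, and 14 of the 24 genes were above it on at least 1 array, whereas the 8 factors were above it on all.

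The count of lower effector genes was 3 without VC replicate 1 or 15EN replicate 2, and also 3 without both arrays of replicate 1. The neurotrophic receptor gene RET (-1.16 ± 0.30) and the nicotinic subunit gene CHRNA5 (-0.96 ± 0.25) also fell, and each lost its call without any of 4 single arrays (adjusted p 0.0616 to 0.0925). GAL, the neuropeptide galanin, was the 1 that rose (0.78 ± 0.21), was dim on all arrays and lost its call without 15EN replicate 1 or any VC array (adjusted p 0.0642 to 0.0909). CHRNB4 did not pass without 15EN replicate 2 (adjusted p = 0.0644) or VC replicate 1 (adjusted p = 0.0553). After scaling to the hybridization controls the median of the list was 0.37, and 9 genes were higher and 3 lower.

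**Figure D4:**
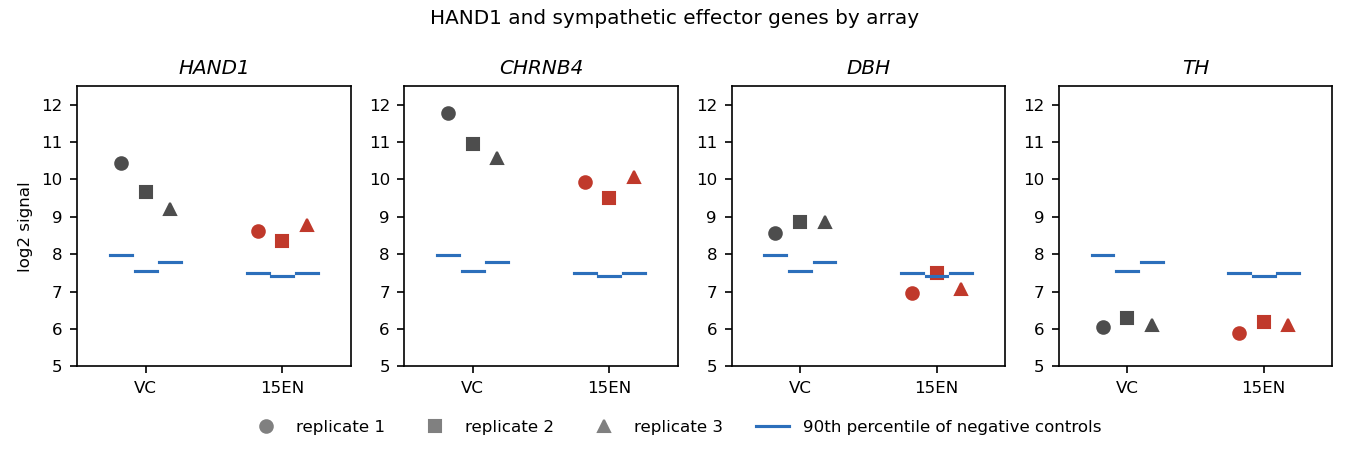
Log2 signal of HAND1, CHRNB4, DBH and TH on the VC arrays (grey) and the 15EN arrays (red), with symbols for the replicate number and a blue line at the 90th percentile of the negative controls of each array. HAND1 and CHRNB4 rise and fall together over the 6 arrays, DBH goes from above the blue line in VC to near or below it in 15EN, and TH lies below it throughout.

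Genes whose pattern over the 6 arrays was most like that of each factor past the threshold were found by Pearson's r, as a description. The 6 points share the difference between groups, so a high r is common, and 193, 95 and 180 genes exceeded r = 0.95 with PHOX2A, HAND1 and ISL1. The gene most like HAND1 was CHRNB4 (r = 0.9979), with log2 signals of 9.93, 9.51 and 10.06 in 15EN and 11.79, 10.96 and 10.57 in VC. The same array was highest and the same array lowest for both genes. CPSF4L (0.996) and PRAC1 (0.9941) followed, and both were dim on all arrays. For PHOX2A the nearest were GJD4 (0.9969, dim on all arrays), the WNT receptor gene FZD1 (0.9945, log2 difference -1.03) and RAVER2 (0.9937). For ISL1 they were PLEKHA8P1 (0.9958), the nuclear lamina gene TMPO (0.9946, log2 difference -1.46) and NXPE2 (0.9939, dim on all arrays).

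Factors of mesenchymal neuroblastoma cells were measured beside the adrenergic ones. Of 24, 6 rose, 3 fell and 15 were not called by limma, beside 12.3% higher and 9.09% lower over all genes. Their median was 0.21, against 0.01 over all genes. Their mean log2 level was 9.03 to 9.34 over the 15EN arrays and 8.54 to 8.82 over the VC arrays. The largest rises were those of FOSL1, ZEB2 and FOSL2, given next. The repressor ZEB2 (2.30 ± 0.25, adjusted p = 0.000324), the AP-1 genes FOSL1 (3.81 ± 0.42, adjusted p = 0.000343) and FOSL2 (2.09 ± 0.36, adjusted p = 0.00289) and the coactivator YAP1 (1.43 ± 0.21, adjusted p = 0.00118) rose. YAP1 was dim on 2 of 3 VC arrays, so its size is uncertain. The other risers were ID1, given above, and RUNX1 (1.37 ± 0.42, adjusted p = 0.0395), named after its value was seen. RUNX1 lost its call without any single array except 15EN replicate 1 (adjusted p 0.0627 to 0.142). It was also lost with trend removal (adjusted p = 0.0605) and with array weights (adjusted p = 0.0513). With the replicate block 9 of the list rose, ZEB1 (adjusted p = 0.0451), SIX4 (0.0414) and MAML2 (0.0207) in addition. The 3 that fell, named after their values were seen, were SNAI2 (-0.73), NOTCH2 (-1.51) and NOTCH3 (-0.97), and 0 of them passed as lower after scaling to the hybridization controls. SNAI2 lost its call without any single array except 15EN replicate 3 (adjusted p 0.075 to 0.115), and its sign turned with that scaling (0.14). NOTCH3 was dim on all arrays and lost its call without 15EN replicate 1, VC replicate 1 or VC replicate 3 (0.0556 to 0.0769). PRRX1 (4.65 to 5.11 in 15EN) and 9 others were dim on all 6 arrays, and 14 of the 24 were not. The list had 1 lower member without VC replicate 1, VC replicate 3 or 15EN replicate 1. Its higher members numbered 4 without VC replicate 1 and 8 without 15EN replicate 1, and between these without any other single array.

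Markers of other cells were counted in the same way. Of 11 Schwann cell and glial markers 0 rose and 0 fell by limma (1 and 1 at an unadjusted p under 0.05), the median was -0.10, the mean level ran from 4.66 to 4.99 in 15EN and from 4.86 to 4.93 in VC, and all but NGFR were dim on all arrays, SOX10 among them. Chromaffin markers had 1 higher (INSM1) and 1 lower (CHGA) of 9 (2 and 1 with the replicate block), a median of -0.11 and mean levels of 5.58 to 5.95 in 15EN and 5.70 to 5.78 in VC. CHGA lost its call without any single array except VC replicate 2 and 15EN replicate 3 (adjusted p 0.0526 to 0.114). Of 9 fibroblast markers 0 rose and 2 fell by limma (0 and 3 at an unadjusted p under 0.05), COL1A1 (-0.88 ± 0.27) and THY1 (-0.79 ± 0.25), with a median of -0.23 and mean levels of 8.60 to 9.19 and 9.05 to 9.43. Each lost its call without any of 4 single arrays, and after scaling to the hybridization controls they were at -0.01 and 0.08. The part of any other cell type in the differences of the 8 factors was not tested.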

How the data were processed

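The authors deposited 1 log2 signal per probe set and array, made with the Transcriptome Analysis Console per the submitters' processing notes. Its version, summarization and normalization, like the build of the probe annotation, are each not given in the sources used here, and the log2 scale was judged from the values (2.20 to 18.8). Of 21448 gene probe sets, 17709 carried 1 symbol in the platform annotation, 0 several and 3739 none. The probe set with the highest mean was kept, which left 17687 genes. No filter on dim genes was applied. A gene is called dim on an array where it lies below the 90th percentile of the negative controls, which does not mean undetected.

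The difference 15EN minus VC was fitted by lmFit and eBayes (limma 3.58.1, R 4.3.3) with no covariate. Tests were two-sided, p-values were adjusted by Benjamini-Hochberg over all genes, and 0.05 was the threshold. All adjusted p-values are limma's, ± after a difference is its standard error, and ± after a mean its SD. The procedure was tested on simulated data. The number of arrays limits the precision. Deviations from group means of same-numbered arrays correlated over genes at 0.229, 0.162 and 0.133, and those of other arrays at -0.138 to -0.0165. With the shared passages in the labels, this was read as pairing by number, and a fit with the replicate block was an alternative. The members and lists were chosen with earlier results of these data known. Named are all 8 members, up to 4 genes of smallest p per list, the 3 genes most like each called member, and TH, DDC and DBH; other names follow a result that turns on them. The alternatives were quantile normalization, scaling to the hybridization controls, trend removal, the replicate block, a filter on dim genes, the mean of probe sets, a trended robust prior, array weights and leaving out arrays. Trend removal subtracts, on each array, a lowess curve of the deviation from the gene's mean over the 6 arrays on brightness.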

Additional observations from a re-analysis of the deposited data

How the results depend on the processing

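The counts of genes past the threshold kept within 1.5 times of their value, by limma, under quantile normalization, removal of a brightness trend, the replicate block, a filter on the dimmest tercile, the mean of probe sets, a trended robust prior and array weights. Those counts were, for the 8 factors, 3 to 4 lower and 0 higher, and the replicate block changed the call of GATA2 (adjusted p = 0.0324) and of no other factor. After scaling to the hybridization controls 4 of the 8 were higher and 0 lower, of all genes 12150 were higher and 437 lower (96.5% higher, against 57.5% as deposited), and of the 160 related genes measured 101 were higher and 7 lower, against 14 and 21. Leaving out 1 array, or both arrays of a replicate number, gave 0 to 4 lower and 0 higher factors, 526 to 3227 higher and 495 to 2240 lower genes, and 6 to 17 higher and 9 to 26 lower related genes. The lower count of factors was 1 without VC replicate 1 and 0 without both arrays of replicate 1 or of replicate 2. HAND2 turned negative under quantile normalization (-0.01) and trend removal (-0.06), and GATA3 likewise (-0.03 and -0.07). Leaving out arrays put HAND2 at -0.06 to 0.25 and GATA3 at -0.07 to 0.26. Scaling to the hybridization controls adds a constant to every difference. Leaving out arrays changes both their number and which ones remain, and these were not told apart. The cause of the other changes was not tested. Genes near the negative controls (TH, DDC, CHGA, GAL, LDB2, NOTCH3, TBX4 and COL1A1, DBH in 15EN, and ISL2, INSM1, YAP1, LMO4 and CITED2 in VC) have uncertain sizes.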
